A study of Mus musculus with 8 samples.

Results

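Expression of genes that encode neuropeptide precursors was followed in the medial ganglionic eminence (MGE) of mouse embryos with and without removal of the transcription factor gene Nkx2-1. The 10 genes, Npy, Sst, Cort, Tac1, Penk, Pdyn, Vip, Cck, Nts and Gal, were chosen by name, and their probes were found through the accession that the array design gives each probe. Of the 10, 9 had at least 1 probe and 8 had a probe bright enough to be tested, among 14449 genes tested in all. No probe was matched to Pdyn, which is not described further. The MGE was microdissected at embryonic day 13.5 (E13.5) from C57BL/6 mice, and its amplified, Cy3-labelled RNA was hybridised to 8 1-colour Agilent arrays with 1 sample on each. Per the labels, the 4 arrays called WT here are Nkx2-1flox/+;Olig2tva-cre- and the 4 called Nkx2-1cKO are Nkx2-1flox/+;Olig2tva-cre+. Both groups thus carry a floxed Nkx2-1 allele, and the Cre, driven from the Olig2 locus, acts in cells that have expressed Olig2. The labels give a heterozygous floxed genotype for the mutant, whereas the methods derive the Nkx2-1cKO from Nkx2-1f/f mice. The labels do not say that arrays of a group came from different animals, so the p-values measure the spread between these samples only.

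Neuropeptides are cut from longer precursor proteins in the secretory pathway, stored in dense-core granules and released to act on G protein-coupled receptors. In the mature forebrain, Npy and Sst mark GABAergic interneurons that arise largely in the MGE, whereas Tac1, Penk and Pdyn mark projection neurons of the striatum, which arise in the lateral ganglionic eminence (LGE). Vip and Cck mark interneurons that arise largely in the caudal ganglionic eminence (CGE).

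The 250 bases upstream of the RefSeq start of transcription are shown for the 3 precursors that passed the test, because these are the genes on which the comparison turns. They were read from RefSeq promoter windows on the assembly GRCm38.p6 and are written 5' to 3' on the strand of the gene, with capitals for matches to the cyclic AMP response element (CRE) TGACGTCA, its shorter core TGACG, the homeodomain core TAATTA and the NKX2-1 type motif CAAGTG on either strand. The Npy window is chr6:49822460-49822709 on the plus strand, the Sst window is chr16:23890845-23891094 on the minus strand, and the Tac1 window is chr6:7554811-7555060 on the plus strand.
Npy: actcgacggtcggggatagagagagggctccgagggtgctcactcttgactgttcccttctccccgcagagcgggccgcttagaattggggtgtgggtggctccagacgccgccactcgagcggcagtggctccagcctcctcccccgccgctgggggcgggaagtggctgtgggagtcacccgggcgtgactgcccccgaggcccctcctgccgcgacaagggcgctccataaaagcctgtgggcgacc
Sst: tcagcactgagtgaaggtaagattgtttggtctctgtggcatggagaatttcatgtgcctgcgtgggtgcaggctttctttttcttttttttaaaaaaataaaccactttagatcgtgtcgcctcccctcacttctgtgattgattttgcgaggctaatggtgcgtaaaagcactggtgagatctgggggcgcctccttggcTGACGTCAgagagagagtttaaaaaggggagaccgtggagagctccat
Tac1: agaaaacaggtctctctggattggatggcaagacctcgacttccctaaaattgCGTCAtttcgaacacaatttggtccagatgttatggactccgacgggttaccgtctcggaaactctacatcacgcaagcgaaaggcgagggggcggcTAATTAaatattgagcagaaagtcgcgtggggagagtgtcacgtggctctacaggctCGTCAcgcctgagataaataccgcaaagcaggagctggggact
The Sst window held the full CRE between positions -48 and -41 from the start, the element through which cyclic AMP is known to raise Sst transcription. Among 10 windows of 9 precursor genes (no window was listed for Penk), that of Sst alone held a full CRE, which 1.55% of all 32851 RefSeq windows of this length held. The shorter core TGACG, which is also part of the full CRE, lay in 6 of the 10 windows and in 17.8% of all windows, with 2 matches in that of Tac1. The homeodomain core lay in the windows of Tac1, between -100 and -95, and of Cort, between -85 and -80, and in 4.84% of all windows. The motif CAAGTG, which is also an E-box, lay in none of the 10 windows and in 11.6% of all windows. The wider E-box CANNTG lay in 5 of the 10 windows and in 66.2% of all windows, and the octamer ATGCAAAT in none of the 10 and in 1.6% of all windows. The Npy window held no match to any of these motifs, and its GC content was 69.2%, against 47.2% for Sst and 51.2% for Tac1. A match in letters does not show that a factor binds there, and a window without one says only that these letters are not in it.

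All signals below are log2 intensities relative to the 75th percentile of the array, so that 0 is the 75th percentile. A difference is the Nkx2-1cKO mean minus the WT mean on this log2 scale, and a gene with several probes is represented by its brightest tested probe. Differences were tested with limma over the 31283 probes well above background on 4 arrays or more, with p-values adjusted by Benjamini-Hochberg over all these probes and a threshold of 0.05. From 31296 to 32683 probes per WT array and 29283 to 32733 per Nkx2-1cKO array were well above background, and no spot was saturated. WT array 1 stood apart by raised dim signals, with a median deviation of 1.41 among the dimmest probes (the lowest 20% by mean signal) against -0.20 to 0.02 on the others, and Nkx2-1cKO array 4 by the highest number of probes above background in its group. The results are therefore also given without these 2 arrays. The number of arrays limits the precision. Each of the 2 slides held 2 arrays of each group. The signal of Nkx2-1 itself, at 1.82 to 1.95 on WT arrays and -4.67 to -4.26 on Nkx2-1cKO arrays, came to 1.24% of WT in the mutant (difference -6.34, adjusted p = 4.77e-09, limma), or to 3.04% with normexp, another background correction (difference -5.04). So low a signal on all 4 mutant arrays goes against the heterozygous label, under which an allele would stay intact. The position of its probe relative to the floxed part of the gene was not matched here.

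Of the 8 precursors tested, Npy and Sst were lower and Tac1 was higher in the Nkx2-1cKO, and the other 5 did not pass the test. Over all 14449 genes, 0.491% were higher and 0.851% lower by the same rule (over all probes, 0.422% and 0.614%). The groups did not overlap for these 3 precursors, as for 6.94% of all genes. The median difference of the 8 precursors was 0.15, beside -0.002 for all genes.

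Npy, whose product neuropeptide Y is a peptide of cortical and striatal interneurons, fell furthest of the 8. Its WT signals were 1.62, 1.93, 1.85 and 2.04 on arrays 1 to 4, and its Nkx2-1cKO signals were -1.55, -1.68, -1.52 and -1.93. Every WT array lay above the 75th percentile of its own signals and every Nkx2-1cKO array below it, with a gap between the groups many times the spread within either. The means were 1.86 ± 0.18 (SD, n = 4) and -1.67 ± 0.18 (SD, n = 4), a difference of -3.53 (standard error 0.12, 95% interval -3.81 to -3.26, adjusted p = 1.17e-06, limma). Npy was thus 11.6-fold lower, at 8.65% of WT. Within slide 1 its difference came to -3.54, within slide 2 to -3.52, and to -3.53 without the 2 arrays that stood apart. In bulk tissue, fewer cells of a type and less RNA per cell cannot be told apart.

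Sst, the precursor of somatostatin, which inhibits hormone release and neuronal firing, was also lower, by less. Its WT signals were 3.94, 4.21, 4.48 and 4.26, and its Nkx2-1cKO signals were 2.14, 2.63, 2.70 and 2.52. All 8 arrays stayed well above the 75th percentile, and the lowest WT array was above the highest Nkx2-1cKO array. The means were 4.22 ± 0.22 (SD, n = 4) and 2.50 ± 0.25 (SD, n = 4), a difference of -1.73 (standard error 0.15, 95% interval -2.05 to -1.40, adjusted p = 0.000344, limma). Sst was thus 3.31-fold lower, at 30.2% of WT. The Sst probe was spotted 10 times on each array, and the 8 or 9 spots kept on an array had an SD between 0.03 and 0.06, smaller than the spread between arrays of a group. Within slide 1 its difference came to -1.64, within slide 2 to -1.81, and to -1.83 without the 2 arrays that stood apart. The intervals of Npy and Sst do not meet, and the difference between these falls was not tested.

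Cort encodes cortistatin, a relative of somatostatin that binds the same receptors. Its signal was -1.51 to -0.74 on WT arrays and -1.46 to -0.72 on Nkx2-1cKO arrays. The groups overlapped over most of their range, and the difference was 0.20 (standard error 0.21, 95% interval -0.27 to 0.68, adjusted p = 0.750, limma). The interval does not include a fall as large as that of Sst. A single array, Nkx2-1cKO array 3, was at -1.46 while the other 3 of its group lay between -0.76 and -0.72.

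**Figure D1:**
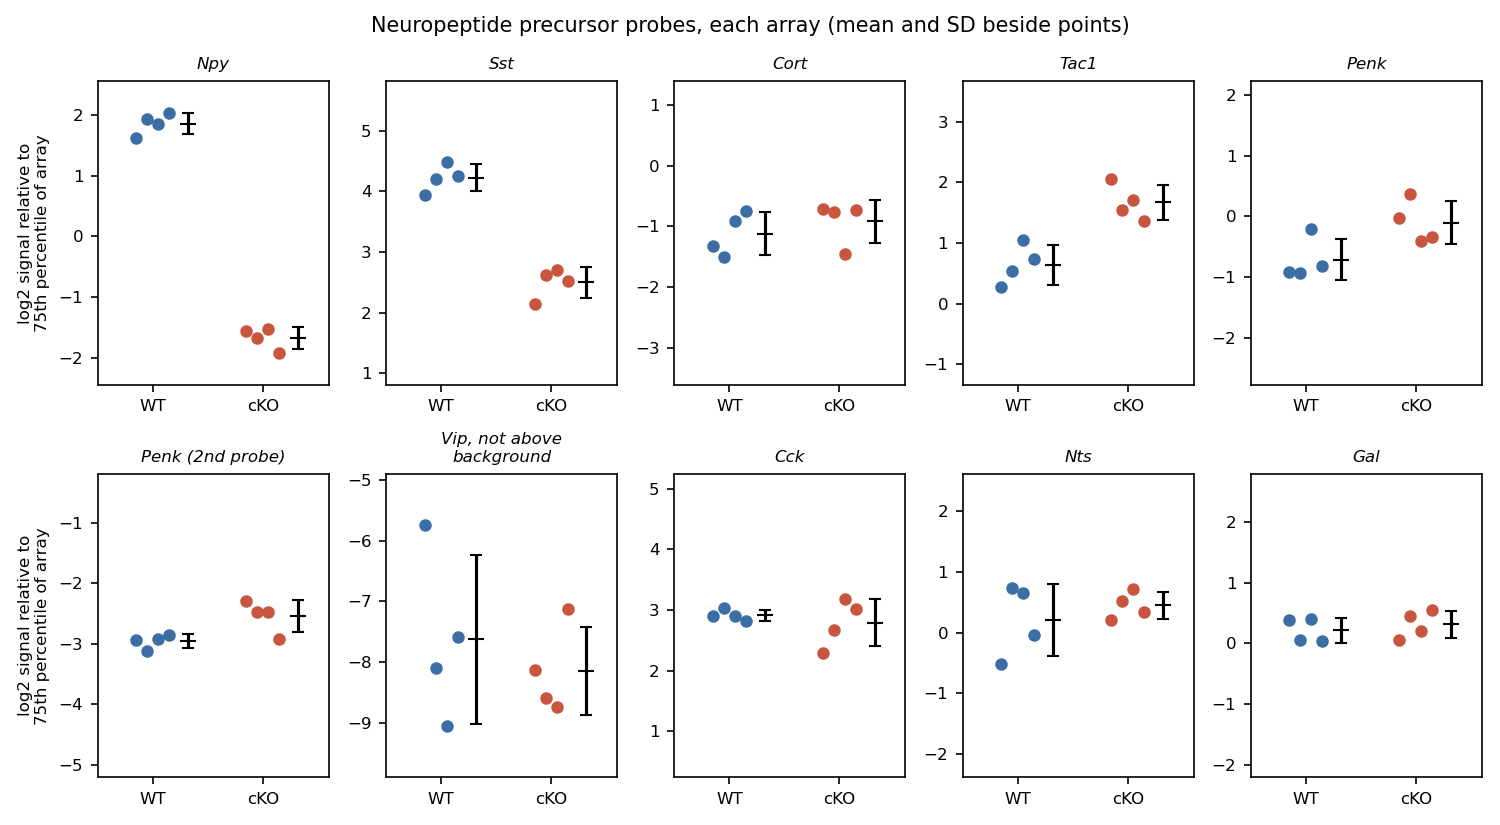
Log2 signal relative to the array's 75th percentile for each probe of the neuropeptide precursors on 4 WT (blue) and 4 Nkx2-1cKO (cKO, red) arrays, with the mean and SD beside the points; every panel spans 5 log2 units around its own mid-range, and the 4 points of a group run from array 1 to array 4. The groups are apart for Npy, Sst and Tac1, and Vip was not well above background on any array.

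Tac1, the precursor of substance P and neurokinin A, went the other way. Its WT signals were 0.27, 0.53, 1.05 and 0.73, and its Nkx2-1cKO signals were 2.06, 1.55, 1.71 and 1.37. The lowest Nkx2-1cKO array was above the highest WT array, though the distance between these arrays was about as large as the SD within a group. The means were 0.64 ± 0.33 (SD, n = 4) and 1.67 ± 0.29 (SD, n = 4), a difference of 1.03 (standard error 0.19, 95% interval 0.61 to 1.44, adjusted p = 0.0323, limma). Tac1 was thus 2.04-fold higher, with differences of 0.80 within slide 1 and 1.25 within slide 2. This call was close to the threshold. Leaving out each array in turn, the difference stayed between 0.90 and 1.16, and the adjusted p (limma) passed without WT array 3 (0.0244) and without Nkx2-1cKO array 4 (0.0421) but not without any of the other 6 arrays (up to 0.104). Without the 2 arrays that stood apart the difference was 1.00 (adjusted p = 0.0693, limma).

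Penk encodes the precursor of the enkephalins, opioid peptides of striatal projection neurons, and was measured by 2 probes. On the brighter probe the WT signals were -0.91, -0.93, -0.21 and -0.81, and the Nkx2-1cKO signals were -0.02, 0.38, -0.41 and -0.35. WT array 3 lay apart from the other 3 WT arrays and within the range of the Nkx2-1cKO, so that the groups overlapped. The difference was 0.62 (standard error 0.21, 95% interval 0.15 to 1.08, adjusted p = 0.391, limma). The dimmer probe gave 0.42 (standard error 0.15, adjusted p = 0.419, limma), also with overlapping groups. Both probes thus had a higher mean in the Nkx2-1cKO and neither passed the test.

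Cck, the precursor of cholecystokinin, had signals of 2.82 to 3.04 on WT arrays and 2.30 to 3.18 on Nkx2-1cKO arrays, with the WT range lying inside that of the mutant. Its difference was -0.12 (95% interval -0.50 to 0.26, adjusted p = 0.814, limma). Nts, the precursor of neurotensin, had signals of -0.52 to 0.74 on WT arrays and 0.21 to 0.72 on Nkx2-1cKO arrays, with a difference of 0.24 (95% interval -0.34 to 0.83, adjusted p = 0.758, limma). The spread of Nts was wider in WT, where arrays 1 and 4 lay below the others. Gal, the precursor of galanin, had signals of 0.04 to 0.40 on WT arrays and 0.06 to 0.55 on Nkx2-1cKO arrays, with a difference of 0.10 (95% interval -0.21 to 0.40, adjusted p = 0.816, limma). Every one of these intervals leaves out a change as large as that of Npy, Sst or Tac1. Vip, the precursor of vasoactive intestinal peptide, was not well above background on any of the 8 arrays, with signals of -9.06 to -5.75 in WT and -8.75 to -7.12 in the mutant, and was not tested. Its highest signal was that of WT array 1, the array with raised dim signals.

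**Figure D2:**
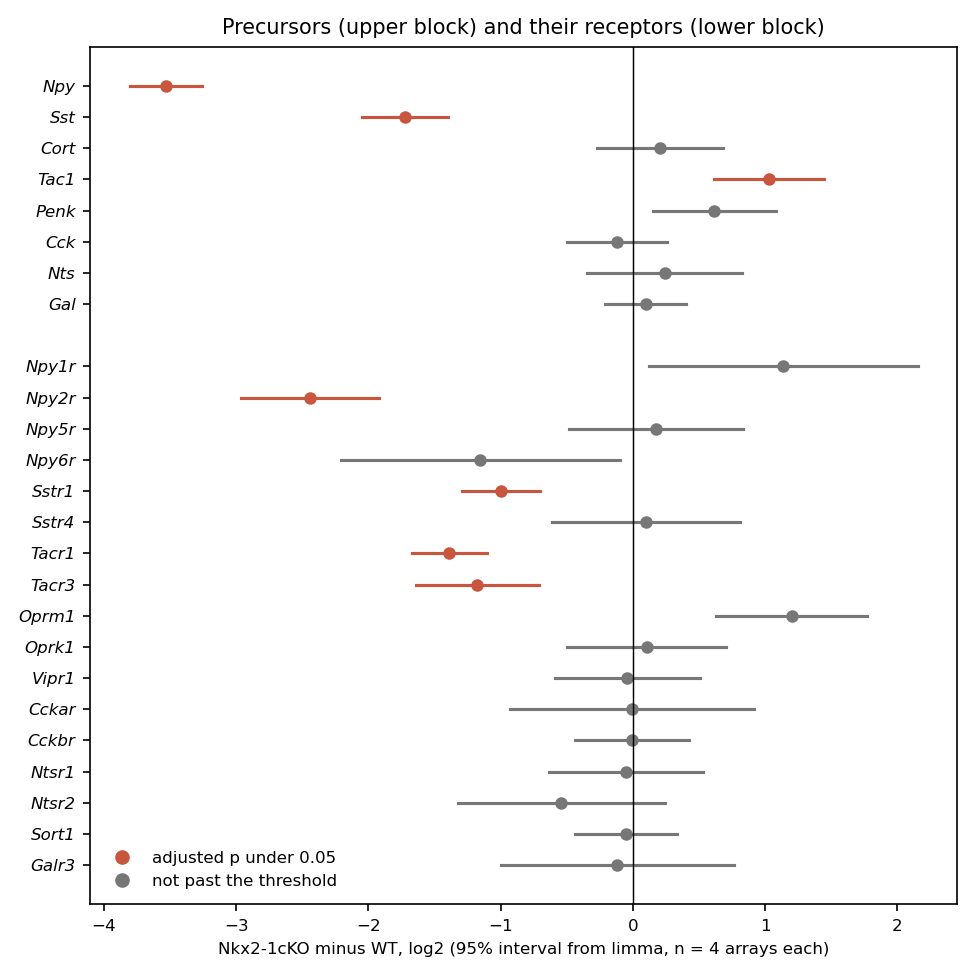
Difference between the Nkx2-1cKO and WT means (log2) with its 95% interval from limma (4 arrays in each group) for the 8 precursors tested (upper block) and the 17 receptors tested (lower block); red marks an adjusted p under 0.05. Npy, Sst and 4 receptors lie left of 0 in red, and Tac1 is the red point right of 0.

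The receptors through which these peptides act were read from a list of 26 genes, of which 23 had a probe and 17 were tested. Of the 17, 4 were lower in the Nkx2-1cKO, none was higher, and 13 did not pass the test (all genes, 0.851% lower). At an unadjusted p under 0.05 in limma, 2 were higher and 5 lower (all genes, 4.28% and 5.23%). The median of the 17 was -0.05, and 6 had groups that did not overlap (all genes, 6.94%). The 4 were Npy2r, Sstr1, Tacr1 and Tacr3, that is, receptors of neuropeptide Y, of somatostatin and cortistatin, and of the tachykinins.
Npy2r, a receptor of neuropeptide Y that acts largely before the synapse, had WT signals of -2.59, -2.32, -1.95 and -2.63 and Nkx2-1cKO signals of -4.77, -4.24, -5.10 and -5.15. Every Nkx2-1cKO array lay well below every WT array. The difference was -2.44 (standard error 0.23, adjusted p = 0.000829, limma), so that Npy2r was at 18.4% of WT. Sstr1, a somatostatin receptor, had WT signals of -3.66, -3.52, -3.46 and -3.54 and Nkx2-1cKO signals of -4.63, -4.49, -4.60 and -4.44, again without overlap. Its difference was -0.997 (standard error 0.13, adjusted p = 0.00562, limma), and it did not pass with quantile normalization (-0.77, adjusted p = 0.133, limma).
Tacr1, the receptor of substance P, had WT signals of -2.37, -2.24, -2.18 and -2.33 and Nkx2-1cKO signals of -3.64, -3.41, -3.83 and -3.80 on its brighter probe. The groups lay far apart relative to their spread, with a difference of -1.39 (standard error 0.13, adjusted p = 0.000609, limma). The dimmer Tacr1 probe gave -0.14 (adjusted p = 0.906, limma), so the probes of this gene disagreed, and the mean of both did not pass (-0.76, adjusted p = 0.124, limma). On its brighter probe Tacr3, the receptor of neurokinin B, had signals of -4.76 to -4.28 on WT arrays and -5.88 to -5.43 on Nkx2-1cKO arrays. The difference was -1.18 (standard error 0.21, adjusted p = 0.0284, limma). The other Tacr3 probe was well above background on 1 WT array and on no Nkx2-1cKO array, and was not tested. Leaving out single arrays, Tacr3 passed in 1 of 8 cases, without WT array 1 (-1.09, adjusted p = 0.0374, limma). Thus Tac1, for the ligand, was higher while the brighter probe of Tacr1, for the receptor of substance P, was lower on the same arrays.
All 4 receptors had signals below the 75th percentile on every array. With normexp, none of the 4 passed, with differences of -1.15 for Npy2r, -0.06 for Sstr1, -0.68 for Tacr1 and 0.17 for Tacr3, the last of opposite sign, whereas Npy (-3.27), Sst (-1.81) and Tac1 (0.88) passed. Oprm1, the mu opioid receptor, and Npy1r, another neuropeptide Y receptor, were picked after their values were seen, because their groups did not overlap with the Nkx2-1cKO higher. Their differences of 1.20 (adjusted p = 0.0738, limma) and 1.14 (adjusted p = 0.520, limma) did not pass.

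The machinery that cuts and stores the peptides differed at 1 gene of 18 tested, which was lower (all genes, 0.851% lower and 0.491% higher). This was Pcsk1, the prohormone convertase that acts early in granule maturation, with WT signals of -2.60, -2.28, -2.78 and -2.42 and Nkx2-1cKO signals of -3.58, -3.61, -3.60 and -3.93. The groups did not overlap. The difference was -1.16 (standard error 0.15, adjusted p = 0.00470, limma). Pcsk1 was thus at 44.8% of WT, and the dimmer probe gave -1.20 (adjusted p = 0.115, limma). With normexp it was -0.46 and did not pass. The other 17 genes, among them Pcsk2, Cpe, Chga, Chgb and Scg2, did not pass, and the median of the 18 was 0.02.

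Of 39 further precursor genes listed, 27 were tested, of which Prok2 was higher, none was lower and 26 did not pass (all genes, 0.491% higher). At an unadjusted p under 0.05 in limma, 4 of these were higher and 3 lower (all genes, 4.28% and 5.23%). Prok2, which encodes prokineticin 2, had WT signals of -3.60, -3.37, -2.87 and -3.62 and Nkx2-1cKO signals of -1.90, -1.86, -2.32 and -2.47. The groups did not overlap, and the difference was 1.22 (standard error 0.20, adjusted p = 0.0212, limma), which is 2.34-fold. The dimmer Prok2 probe passed too, with 1.65 (adjusted p = 0.0346, limma). Leaving out single arrays, Prok2 passed in 3 of 8 cases, without WT array 3, Nkx2-1cKO array 3 or Nkx2-1cKO array 4 (adjusted p up to 0.0911 without another, limma). It did not pass with normexp (1.21, adjusted p = 0.224, limma) or without the variance trend of the fit (adjusted p = 0.0502, limma), and without the 2 arrays that stood apart its adjusted p was 0.0693 (limma, difference 1.26). Pnoc, the precursor of nociceptin, was picked after its values were seen and had a difference of 0.71 that did not pass (adjusted p = 0.0905, limma). The dimmer Pnoc probe gave 0.64 with overlapping groups (adjusted p = 0.349, limma). In the other direction, Nppa of the same list was nearer the threshold and did not pass (-0.96, adjusted p = 0.0627, limma).

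**Figure D3:**
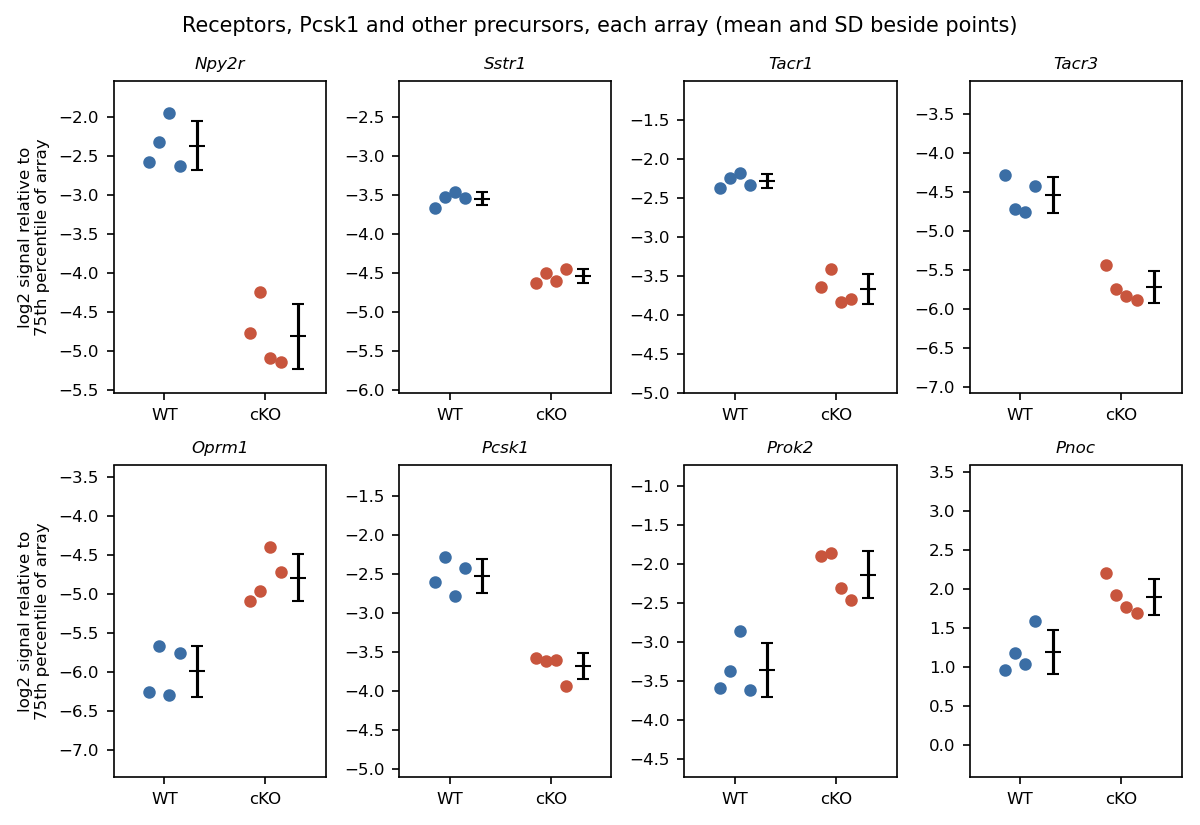
Log2 signal relative to the array's 75th percentile for 5 receptors, Pcsk1, Prok2 and Pnoc (brightest probe) on 4 WT (blue) and 4 Nkx2-1cKO (cKO, red) arrays, with the mean and SD beside the points; every panel spans 4 log2 units. No gene shown has overlapping groups; Oprm1 and Pnoc did not pass the test.

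Genes known to act upstream of Npy and Sst in interneurons were given as a list of 12, all tested. Of these, 7 were lower and none higher (all genes, 0.851% lower), with a median of -0.63. The 7 count Nkx2-1, the gene removed, whose fall is set by the design. By an unadjusted p under 0.05 in limma, 10 were lower and 1 higher (all genes, 5.23% and 4.28%). Besides Nkx2-1 the 7 included Lhx6 (-4.20), a LIM homeodomain factor needed for MGE interneurons, Maf (-2.51), Sox6 (-1.64), Satb1 (-0.61) and Zeb2 (-0.51). Among them, Satb1, which is known to promote Sst expression, was at 65.3% of WT, whereas Lhx6 was at 5.43%.
Markers of the cell types that the dissected tissue could hold were read beside these results. Of 14 tested markers of the LGE and CGE, 6 were higher (all genes, 0.491%) and none lower, with a median of 0.62. By an unadjusted p under 0.05 in limma, 10 were higher and none lower (all genes, 4.28% and 5.23%). The summed signal of the 14 was 43.4 to 57.6 times the array's 75th percentile in WT and 81.7 to 91.0 times in the Nkx2-1cKO. Meis2, the brightest of the 14 on every array, weighs most in this sum. Its log2 signal was 4.10 to 5.05 in WT and 5.56 to 5.84 in the Nkx2-1cKO. The 6 were Rarb (1.51), Zfp503 (1.39), Ebf1 (1.37), Isl1 (1.26), Meis2 (0.98) and Foxp2 (0.60), several of them factors of striatal neurons. Of 10 MGE markers, Nkx2-1, Lhx6 and Lhx8 were lower (all genes, 0.851%) and 7 did not pass. Nkx2-1 and Lhx6 are also on the list of upstream genes, so they were counted in both. By an unadjusted p under 0.05 in limma, 2 of the 10 were higher and 5 lower (all genes, 4.28% and 5.23%). The summed signal of the 10 was 165 to 181 in WT and 139 to 163 in the Nkx2-1cKO. The part of these cell types in the differences of Npy, Sst and Tac1 was not tested. No marker of pallium, hypothalamus, erythroid cells, endothelium, microglia or mesenchyme passed, out of 9, 5, 7, 7, 5 and 7 tested (limma). At an unadjusted p under 0.05 in limma, 1 hypothalamus and 1 mesenchyme marker were lower (all genes, 5.23% lower). Otp, a marker of the hypothalamus, was not well above background on any array. The summed signal of mesenchyme markers was 7.20 on WT array 4, 0.977 to 1.59 on the other WT arrays and 0.963 to 1.56 in the Nkx2-1cKO. Without WT array 4 the differences were -3.47 for Npy, -1.71 for Sst and 1.06 for Tac1, the last of which then did not pass (adjusted p = 0.0861, limma).

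**Figure D4:**
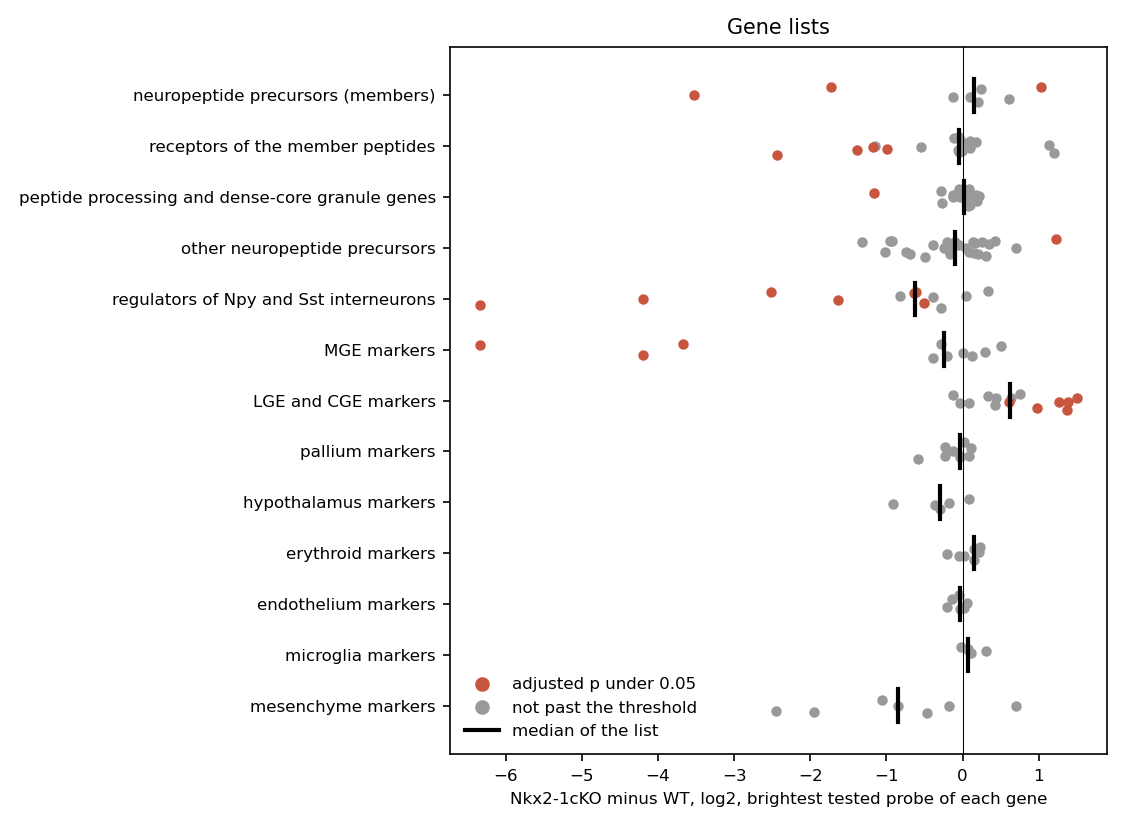
Difference between the Nkx2-1cKO and WT means (log2, brightest tested probe) for the genes of each list, 1 point a gene, with red for an adjusted p under 0.05 and a black bar at the median of the list; the vertical scatter within a list has no meaning. The precursors spread to both sides of 0, the LGE and CGE markers lie mostly to the right, and the regulators mostly to the left.

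The genes with the pattern most like that of each precursor called were found by the smallest root mean square difference of their log2 values over the 8 arrays, each gene centred on its own mean, among 14449 genes. For Npy these were Lhx8 (0.26), Gpr17 (0.30) and Gbx2 (0.32). For Sst they were Elfn1 (0.16), Olig1 (0.17) and Cmtm5 (0.20). For Tac1 they were 1700019D03Rik (0.18), Mgat4c (0.22) and Sybu (0.23). The measure takes in the difference between the groups, so it does not show that genes vary together within a group. These genes were chosen for this likeness, so nothing was tested on them.

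**Figure D5:**
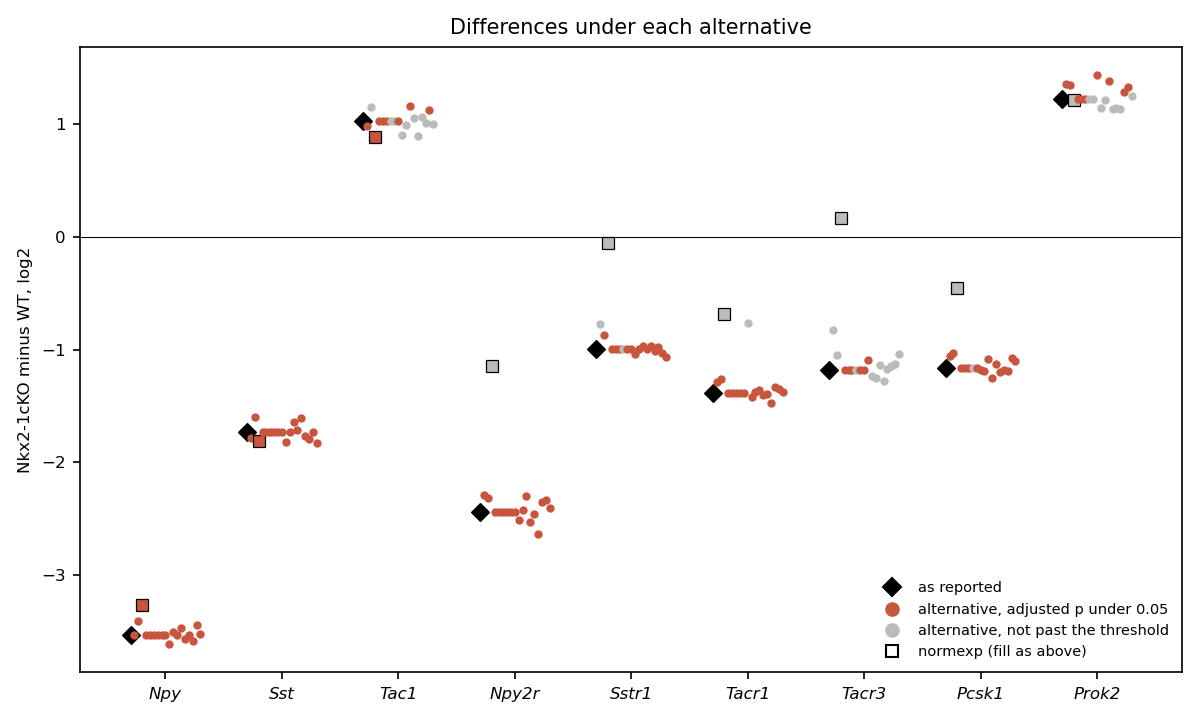
Difference between the Nkx2-1cKO and WT means (log2) for the 3 precursors called and the 6 other genes of the peptide lists called, as reported (black diamond) and under each alternative processing (circles, and a square for normexp), in red where the adjusted p was under 0.05. Npy and Sst are red throughout, whereas Tac1, Tacr3 and Prok2 are grey under several alternatives and the square lies nearest 0 for Npy2r, Sstr1, Tacr1 and Pcsk1 and on the other side of 0 for Tacr3.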

How the data were processed

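Gene expression in E13.5 MGE was measured for 4 WT and 4 Nkx2-1cKO samples, grouped by the genotype in the labels. The authors deposited Agilent Feature Extraction output (version 10.1 per the labels, 10.7.3.1 per the file headers), holding an intensity per spot that the software had background-subtracted and detrended. The steps that followed are not given in the sources used here. Here, control spots and outliers were dropped, log2 intensities were scaled to each array's 75th percentile, and the spots of a probe were averaged. Accessions gave 24844 of 41174 probes a symbol (17178 symbols) through a RefSeq table of GRCm38.p6. Tests were made in limma 3.58.1 (R 4.3.3) by lmFit and eBayes, fitting a variance trend. An exact two-sided permutation test of single probes (70 splits) reaches p = 0.0286 at best.

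Named genes are all members, every gene of the other lists past the threshold, Nkx2-1, and the 3 genes most like each member called, except for a result that is not reported here. The members and lists were chosen with earlier results of these data known. The procedure was tested on simulated data. Alternatives were quantile normalization, median centring, normexp (offset 50, on the median spot signal), no filter or a filter on mean signal, a block for slide or for replicate number, a fit lacking the variance trend, averaging the probes of a gene, and leaving out each array. Leaving out WT array 1 and Nkx2-1cKO array 4 together was chosen after seeing the data.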

Additional observations from a re-analysis of the deposited data

Results flagged for a closer look

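In 2 of 20 groups examined, 1 array lay far from the other 3 for a precursor probe, where chance alone gives about 1 in 20. Cort was at -1.46 on Nkx2-1cKO array 3 and between -0.76 and -0.72 on the other arrays of that group. The brighter Penk probe was at -0.21 on WT array 3 and between -0.93 and -0.81 on the other WT arrays.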

How the results depend on the processing

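Npy (-3.61 to -3.27) and Sst (-1.83 to -1.60) passed under every alternative run. With limma, 132 probes were higher and 192 lower. The higher probes numbered 67 with normexp, 209 with slide as a block, 87 without the variance trend, 57 without the 2 arrays that stood apart, and 65 to 118 leaving out each array. The lower probes numbered 115 with median centring, 89 with normexp, 121 without the 2 arrays, and 130 to 174 leaving out each array. Same-numbered arrays of the groups did not vary together (correlations of deviations -0.48 to -0.19). Same-numbered arrays always lay on different slides, so this check cannot decide whether the numbers are a pairing. With the replicate block 8 probes were higher and 64 lower. Tac1, the 1 precursor called higher, was not called (0 higher) with median centring (1.16, adjusted p = 0.0760, limma), the replicate block (adjusted p = 0.222, limma), no variance trend (adjusted p = 0.0826, limma) or without the 2 arrays. Leaving out each array gave 0 to 1. The 4 receptors called lower became 2 with quantile normalization, 0 with normexp and 2 with the replicate block (Sstr1 and Tacr3 lost in both cases with 2), and 3 to 4 leaving out each array. With the replicate block, Pcsk1 (adjusted p = 0.0953, limma) and Prok2 (adjusted p = 0.146, limma) did not pass either. Sign changes were seen for Cck with median centring (0.0069) and without Nkx2-1cKO replicate 1 (0.043, with -0.25 to 0.043 over all arrays left out), for Nts without WT replicate 1 (-0.0013, with -0.0013 to 0.42 over all arrays left out) and for Tacr3 with normexp (0.17). Median centring moved the median of all genes to 0.13, so its differences are read relative to that. The causes were not tested. The brightest probes of the 4 receptors called were well above background on all 8 arrays, whereas for Vip signal over background allowed no test.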
